A study of Mus musculus with 12 samples.

Results

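The cytosolic ribosomal proteins are the protein parts of the ribosomes that translate nuclear mRNAs. Their genes were taken by symbol (Rpl or Rps followed by a digit, with Rpsa, Rplp0, Rplp1 and Rplp2, without the Rps6k kinases and pseudogenes). Of the 5906 genes with at least 10 placed counts over the 12 libraries, 8 were such genes. Described here are Rps20, Rps26, Rps27a and Rps24 of the small subunit, and Rplp0, Rpl13 and Rpl3l of the large subunit, while counts and medians over the group include all members. A placed count is a deposited count whose entry lay on the exons of exactly 1 gene of the mouse build GRCm38, as explained below.

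Bulk RNA-Seq was performed on T cells from the spleens of WT mice and of mice without PERK in their T cells, the endoplasmic reticulum stress kinase encoded by Eif2ak3. In the PERK-cKO mice (labelled PERK-KO), floxed PERK alleles had been crossed with a Cre driven by the Cd4 promoter, on a B6 background. T cells of either genotype met foreign APCs (allogeneic stimulation) or antibodies to CD3 and CD28 (polyclonal stimulation), and each of the 4 groups had 3 libraries. By the labels, polyclonal cultures ran for 3 days and allogeneic ones for 4 days. The study itself gives both kinds of culture the same length for the RNA-Seq in another place, so whether the day differed is uncertain. If the labels hold, stimulation and day cannot be told apart. No group was left unstimulated, and neither the animals' age nor whether the 3 libraries of a group came from separate mice is given in the sources used here. The p-values therefore measure only the spread between these libraries, which may be technical.

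A mammalian ribosome has a small subunit, which decodes the mRNA, and a large subunit, which joins the amino acids. The mRNAs of ribosomal proteins carry a 5′ terminal oligopyrimidine (TOP) stretch, and their translation rises with mTORC1 activity, which is switched on when T cells are activated and grow. PERK phosphorylates eIF2α and so lowers translation initiation under endoplasmic reticulum stress.

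Total counts were 3132702 to 4631908 per library, and 1568431 to 2327503 of them were placed on a gene. Over Eif2ak3, the targeted gene, PERK-cKO libraries held 121 to 155 counts and WT libraries 167 to 173 after allogeneic stimulation, and Eif2ak3 was lower in PERK-cKO (log2 fold change -0.49 ± 0.137 (SE), edgeR adjusted p = 0.00759). After polyclonal stimulation the counts were 76 to 116 and 85 to 152, which overlapped (log2 fold change -0.36 ± 0.190 (SE), edgeR adjusted p = 0.171). Whether these bases lie in the deleted part of the gene was not tested. Of 14 T cell markers, 7 had counts in every group (Thy1, Lck, Lat, Cd5, Cd6 and Zap70 among them), and the others had no placed entry. The replicates of a group differed from each other by a chi-square per degree of freedom of 3.59 to 14.4, apart from WT polyclonal replicate 1, which differed from the other two by 48.3 and 54.6. For the calls of ribosomal protein genes and the counts over gene lists that changed when this library was left out, the value without it is also given.

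The deposited entries carry positions of GENCODE M27, an annotation of build GRCm39, whereas the submitters' processing notes name mm10, the earlier build, which is the same assembly as GRCm38. Read as printed on GRCm38 (GENCODE M21), an entry often lies over a gene other than the one it is listed under. Of 86 ribosomal protein genes by symbol, 52 lay under no entry, 24 lay only under entries shared with another gene and 1 was overlaid by too few bases. Another, Rpl30, had a placed entry with 0 counts. The remaining 8 together held 26234 placed counts. The absence of the other genes says nothing about their expression. Only Rps20 was counted under its own symbol, and a second entry over its exons, a small RNA, held 0 counts.

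The counted bases of each gene differ, so its counts may include reads from introns or from a neighbour. Rps20 (chr4:3831334-3835665, minus strand) was covered over all 4080 of its exonic bases, of which 3170 were 3′ UTR and 357 coding. Rps26 (chr10:128624534-128626747, minus strand) had 1350 of 1736 counted bases in its exons, and 860 of these belonged only to exons of its other transcripts. Rps27a (chr11:29545846-29548109, minus strand) had 321 of 520 counted bases in exons, 167 of them coding. Rpl13 (chr8:123102350-123105244, plus strand) had 289 of 503, 93 of them coding. The entry of Rpl13 also spanned the small nucleolar RNA gene Snord68.

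Rplp0 (chr5:115559467-115563727, plus strand) had only 384 of 1904 counted bases in exons, 54 of them coding and 121 in the 5′ UTR, while 709 lay in introns and 811 outside the gene. Rps24 (chr14:24487125-24496959, plus strand) had 107 of 378, all in its 3′ UTR. Rpl3l (chr17:24727820-24736143, plus strand), the striated muscle form of the large subunit protein Rpl3, had 386 of 5872. The entries over Rps27a, Rplp0, Rps24 and Rpl3l are listed on the opposite strand to the gene. As no strand option is given for the counting, reads of a gene and of an antisense partner cannot be told apart.

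**Figure D1:**
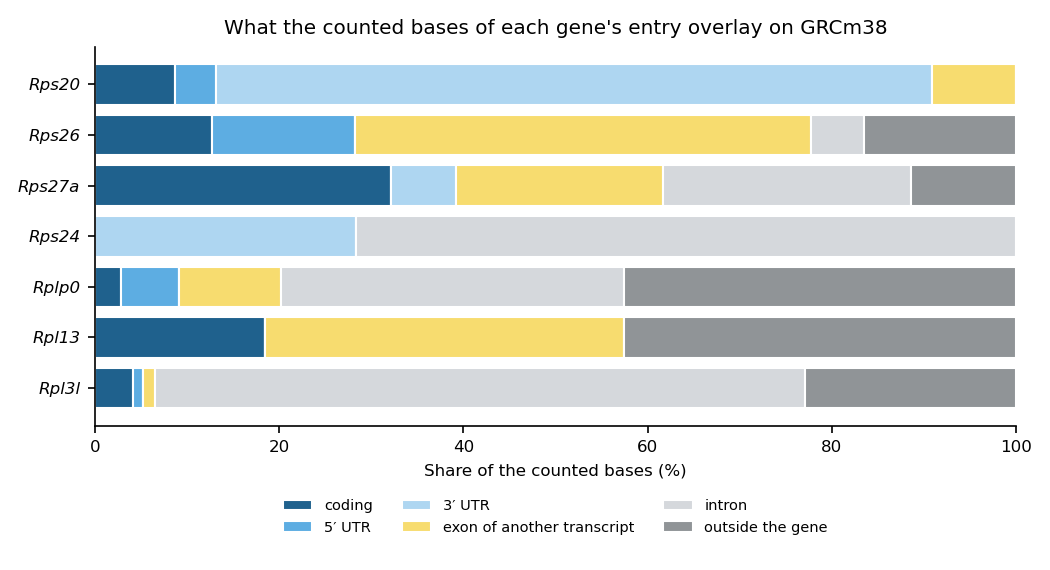
Share of the counted bases of the entries of 7 of the genes (horizontal axis, %) that lay on coding bases, UTRs, exons of the gene's other transcripts, introns or outside the gene on GRCm38. Rps20 lay on exons over all of its bases, Rps26 over 77.8% and Rps27a over 61.7%, against 20.2% for Rplp0 and 6.57% for Rpl3l.

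The coding bases that were counted are printed for 5 genes with many counts, to show which part of each mRNA the values describe. They were read from the GENCODE M21 transcripts (GRCm38), 5′ to 3′ on the gene's strand, in the longest coding piece of each, and capitals mark a start codon.
Rps20 (chr4:3834504-3834683, minus): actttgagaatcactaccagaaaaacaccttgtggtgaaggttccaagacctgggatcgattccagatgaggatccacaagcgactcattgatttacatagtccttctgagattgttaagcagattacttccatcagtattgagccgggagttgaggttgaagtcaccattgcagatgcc
Rps26 (chr10:128626063-128626240, minus): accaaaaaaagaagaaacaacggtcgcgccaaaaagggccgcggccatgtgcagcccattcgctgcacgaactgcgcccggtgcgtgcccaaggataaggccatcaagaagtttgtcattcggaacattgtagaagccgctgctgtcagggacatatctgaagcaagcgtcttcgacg
Rps27a (chr11:29545883-29546029, minus): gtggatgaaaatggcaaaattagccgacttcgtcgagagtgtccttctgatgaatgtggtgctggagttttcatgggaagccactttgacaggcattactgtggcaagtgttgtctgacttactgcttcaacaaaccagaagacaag
Rplp0 (chr5:115559835-115559888, plus): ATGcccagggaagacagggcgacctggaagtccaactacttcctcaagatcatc
Rpl13 (chr8:123102895-123102986, plus): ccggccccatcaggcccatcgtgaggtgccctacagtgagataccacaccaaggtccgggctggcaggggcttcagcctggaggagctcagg
The Rps27a piece holds positions 322 to 468 of 468 coding bases. Rps27a is made as a fusion of ubiquitin with the ribosomal protein, and these bases end the ribosomal protein part. The Rps20 piece holds positions 178 to 357 of 357, and the Rplp0 piece only positions 1 to 54 of 951.

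A TOP stretch begins at the first base of the mRNA. Windows around the annotated starts were searched for a pyrimidine run at any position, which by itself does not show a TOP stretch, in the RefSeq promoter table (GRCm38.p6), which held 5 of the 8 genes. The window ran from 10 bases before to 20 bases from the start on, and only the gene's strand was read. A run of at least 6 bases of C or T was found in 4 of 7 windows of these genes, against 28.7% of the 32851 windows of all genes. The windows of Rps26, Rplp0 and Rps24 are printed because they held a run (capitals), and that of Rpl13 because it did not.
Rps26 (chr10:128626487-128626516, minus): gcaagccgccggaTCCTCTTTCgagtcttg
Rplp0 (chr5:115559457-115559486, plus): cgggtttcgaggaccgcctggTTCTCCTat
Rps24 (chr14:24490668-24490697, plus): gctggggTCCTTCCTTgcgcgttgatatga
Rps24 (chr14:24490743-24490772, plus): cgccgtagccatcatggtgagTCTCCTCgg
Rpl13 (chr8:123102340-123102369, plus): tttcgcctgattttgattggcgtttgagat
Only the run of the first Rps24 window spanned the annotated start. Counted from 1 at that start, the run of Rps26 began at base 4, and those of Rplp0 and of the second Rps24 window at base 12. The table gives annotated starts, which need not be the starts used in T cells. Both windows of Rpl3l held no run.

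Levels were compared as placed CPM (counts scaled to a common library size), on a scale set by TMM over all 12 libraries. Per kilobase of counted bases, the mean level over the 12 libraries was 274 CPM per kb for Rps27a, followed by Rps26 (158), Rps20 (128), Rpl13 (123), Rplp0 (36.4) and Rps24 (35.2). Rpl3l had 0.572. The 8 genes together took 0.0884% to 0.151% of the placed counts of a library. After polyclonal stimulation their summed level was 1211 to 1513 CPM in WT and 1026 to 1214 in PERK-cKO libraries. After allogeneic stimulation it was 931 to 1175 and 867 to 1291. In both stimulations the genotypes overlapped in this sum.

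**Figure D2:**
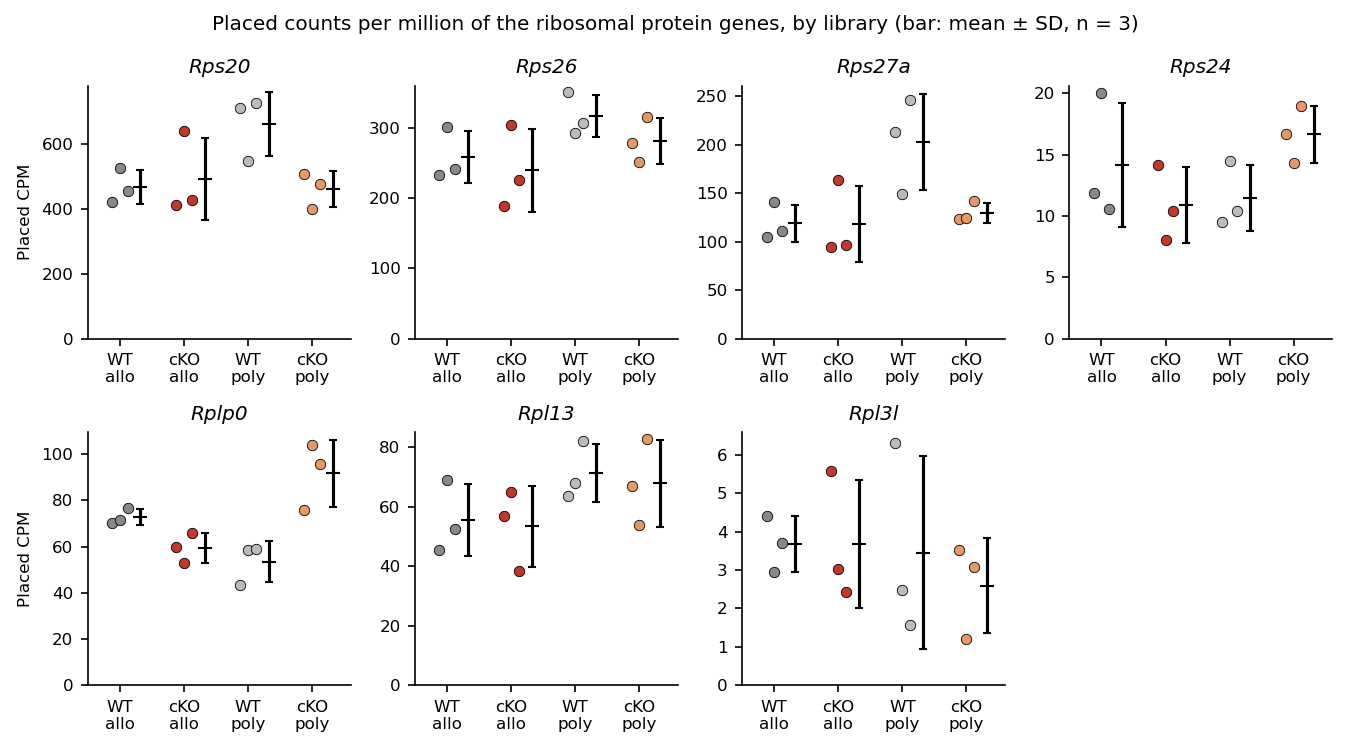
Placed CPM (vertical axis) of 7 of the genes in each of the 12 libraries (points, replicates 1 to 3 from left to right), with the mean ± SD of each group (n = 3); allo and poly are the stimulations and cKO is PERK-cKO. Rps20 and Rps27a were lower and Rplp0 was higher in all PERK-cKO polyclonal than in all WT polyclonal libraries, with no such separation of Rps20 and Rps27a after allogeneic stimulation.

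The first question was whether loss of PERK changed these genes after polyclonal stimulation. Of the 7 genes tested, Rplp0 rose and Rps27a and Rps20 fell in PERK-cKO, and the CPM of the genotypes did not overlap for any of the 3. How many of all genes lacked overlap, here or in the comparisons below, was not counted. A lack of overlap therefore adds nothing to the test. Rps26, Rpl13 and Rps24 did not pass the test, and Rpl3l had too few counts to be tested. Of all 3937 genes tested, 31.8% passed (16% higher and 15.8% lower in PERK-cKO), so 3 of 7 is not far from the share of all genes. The median log2 fold change was -0.08 over the 7 genes and 0.00 over all genes. In bulk libraries, fewer cells of a type and less RNA per cell cannot be told apart.

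Rplp0 encodes a protein of the ribosomal stalk, which recruits elongation factors. Its level was 43.2, 58.4 and 58.8 CPM in WT and 75.8, 104 and 95.6 CPM in PERK-cKO polyclonal libraries. Every PERK-cKO library was above every WT library. The mean was 53.4 ± 8.89 (SD, n = 3) in WT and 91.7 ± 14.4 (SD, n = 3) in PERK-cKO (log2 fold change 0.76 ± 0.159 (SE), edgeR adjusted p = 0.00202). As most of its counted bases lay in introns or outside the gene, this value need not describe the mature mRNA, and Rplp0 was not measured where an entry had to lie on exons over at least 50% of its bases.

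Rps20 encodes a protein of the head of the small subunit and held the most counts, 672 to 1397 per polyclonal library. Its level was 710.2, 549 and 726 CPM in WT and 509, 401 and 478 CPM in PERK-cKO libraries. The lowest WT library lay above the highest PERK-cKO library. The mean was 662 ± 98.0 (SD, n = 3) in WT and 463 ± 55.7 (SD, n = 3) in PERK-cKO (log2 fold change -0.53 ± 0.112 (SE), edgeR adjusted p = 0.00203).

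Rps27a encodes the ubiquitin fusion described above. It was at 213, 149 and 246 CPM in WT and at 123, 124 and 142 CPM in PERK-cKO libraries. The genotypes did not overlap, although WT replicate 2 was close to the highest PERK-cKO library. The mean was 203 ± 49.5 (SD, n = 3) in WT and 129.7 ± 10.9 (SD, n = 3) in PERK-cKO (log2 fold change -0.66 ± 0.148 (SE), edgeR adjusted p = 0.00307).

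These 3 calls held in all 6 fits that left out 1 library. Without WT polyclonal replicate 1 the log2 fold change was 0.60 for Rplp0, -0.50 for Rps20 and -0.65 for Rps27a. The summed level of the 7 T cell markers was 6010.1 to 6329 CPM in PERK-cKO and 4797 to 4931 CPM in WT polyclonal libraries. These markers did not move together. Thy1, which held the most counts of them (78452 over all libraries), was at 0.64 ± 0.0745 (SE), Lck rose too, Cd5 fell and Lat was at -0.09 ± 0.0885 (SE), and the median over the 7 markers was 0.16. A scaling to their sum therefore weighs Thy1 most. Scaled to these markers, the 3 calls held in the same directions (Rplp0 0.43, Rps20 -0.86, Rps27a -0.98), and Rps26 fell too (-0.51), with 5 of 7 passing in all. Rplp0 was then only just under the threshold (edgeR adjusted p = 0.0497). Of all 3937 genes 1656 passed under this scaling, against 1250 with TMM. It moved the median of all genes to -0.32 and left 10.5% of the called genes higher, against 50.3% with TMM. Macrophage and monocyte markers summed to 107 to 139 CPM in PERK-cKO, with 5 of 14 detected and Mrc1 at 0, and to 102 to 113 CPM in WT, with 3 of 14 detected and C1qc, Cd163 and Lyz2 at 0. Basophil and mast cell markers summed to 30.0 to 35.2 and 3.69 to 7.28 CPM, with 5 of 8 detected. Natural killer cell markers summed to 9.76 to 11.3 CPM in PERK-cKO and at most 2 CPM in WT, with 2 and 1 of 6 detected and Ncr1 at 0 in WT. B cell, dendritic cell, neutrophil and erythroid markers summed to at most 21.6 CPM each in all polyclonal libraries. The part of these cells in the result was not tested.

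The other genes tested had smaller differences for their error. Rps26, which lies at the mRNA exit of the small subunit, was at 351, 293 and 307 CPM in WT and 278, 251 and 316 CPM in PERK-cKO libraries. These values overlapped (log2 fold change -0.18 ± 0.103 (SE), edgeR adjusted p = 0.195).

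Rpl13, of the large subunit, was at 63.7, 67.8 and 82.2 CPM in WT and 67.0, 53.7 and 82.7 CPM in PERK-cKO libraries, with wide overlap (log2 fold change -0.08 ± 0.162 (SE), edgeR adjusted p = 0.752). Rps24, a small subunit protein, rested on only 18 to 38 counts per library. It was at 9.48, 14.5 and 10.4 CPM in WT and 16.7, 14.3 and 19.0 CPM in PERK-cKO libraries, which overlapped by 1 library (log2 fold change 0.53 ± 0.282 (SE), edgeR adjusted p = 0.173). Rpl3l had 2 to 12 counts per library, at 6.32, 2.49 and 1.56 CPM in WT and 3.52, 1.19 and 3.08 CPM in PERK-cKO. Its levels overlapped, and a difference was not detectable at this depth.

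After allogeneic stimulation, none of the 7 genes tested passed, by edgeR or DESeq2, and none had an unadjusted p under 0.05. Of all 4093 genes tested, 33.0% passed (18.5% higher and 14.5% lower in PERK-cKO). The median log2 fold change was -0.04 over the 7 genes and -0.02 over all genes. The lowest estimate was -0.36 ± 0.351 (SE), for Rps24.

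Rps20 was at 422, 525 and 456 CPM in WT and 412, 639 and 429 CPM in PERK-cKO allogeneic libraries. PERK-cKO replicate 2 was the highest and the others were near the lowest WT library (log2 fold change 0.08 ± 0.129 (SE), edgeR adjusted p = 0.686), and the estimate was -0.13 without that library. Rps27a was at 105, 141 and 111 CPM in WT and 94.6, 164 and 97.0 CPM in PERK-cKO libraries (log2 fold change 0.00 ± 0.173 (SE), edgeR adjusted p = 0.992). Again PERK-cKO replicate 2 was the highest library and the groups overlapped.

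Rplp0 was at 70.4, 71.3 and 76.7 CPM in WT and 59.8, 52.9 and 65.9 CPM in PERK-cKO allogeneic libraries. All PERK-cKO libraries lay below the WT libraries, yet the difference did not pass the test (log2 fold change -0.29 ± 0.150 (SE), edgeR adjusted p = 0.145). Rps26 was at 233, 301 and 242 CPM in WT and 188, 304 and 226 CPM in PERK-cKO (log2 fold change -0.11 ± 0.138 (SE), edgeR adjusted p = 0.581). The estimate of Rps26 turned to 0.04 when scaled to T cell markers.

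Rpl13 was at 45.3, 68.9 and 52.3 CPM in WT and 56.7, 65.0 and 38.4 CPM in PERK-cKO allogeneic libraries (log2 fold change -0.04 ± 0.194 (SE), edgeR adjusted p = 0.896). Rps24 was at 11.9, 20 and 10.6 CPM in WT and 14.2, 8.06 and 10.4 CPM in PERK-cKO (edgeR adjusted p = 0.476). For each of these the range of CPM within either genotype was wider than the difference of the means. Rpl3l was at 4.40, 2.94 and 3.70 CPM in WT and 5.59, 3.02 and 2.44 CPM in PERK-cKO.

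The PERK-cKO allogeneic libraries held more RNA of other cells. Macrophage and monocyte markers summed to 1610.1 to 1820.5 CPM in PERK-cKO and 234 to 272 CPM in WT, with 5 of 14 markers detected in both and Cd163 at 0 in both. Basophil and mast cell markers summed to 2934 to 3179 and 137 to 153 CPM, with 5 of 8 detected. B cell markers summed to 193 to 223 and 90.1 to 118 CPM, with 2 of 10 detected. Dendritic cell markers summed to 45.6 to 61.6 and 1.77 to 7.93 CPM, and the 1 neutrophil marker measured, Csf3r, to 20.6 to 29.2 and 0.00 to 1.77 CPM. Natural killer cell and erythroid markers were at most 8.60 CPM in all allogeneic libraries. The T cell markers summed to 6035 to 6632 CPM in PERK-cKO and 6982 to 7065 CPM in WT. Of 6 of these markers tested, Lck, Lat, Cd5 and Zap70 fell (median -0.41), while Thy1 was at 0.05 ± 0.0919 (SE). Every cell uses ribosomal proteins, and the part of these cells in the allogeneic values was not tested. Scaled to the T cell markers, none of the 7 genes passed either, although the median of all genes moved to 0.13 and the share of called genes that were higher from 56.1% to 75.1%.

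**Figure D3:**
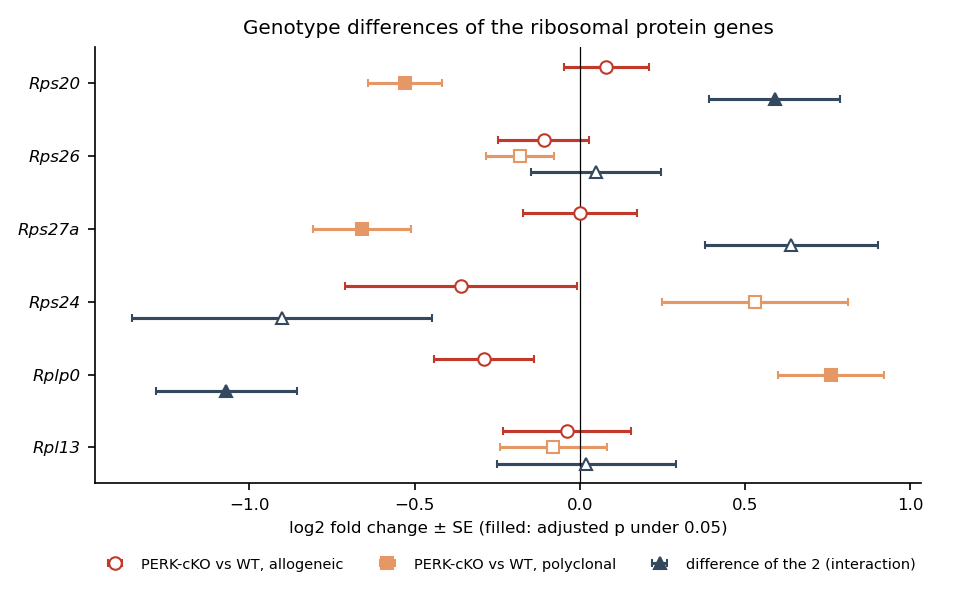
Log2 fold change of PERK-cKO over WT (horizontal axis, ± SE of the edgeR fit) of 6 of the tested genes after allogeneic (circles) and polyclonal (squares) stimulation, and the difference of both (triangles, the interaction), filled where the adjusted p was under 0.05. Rplp0 was at 0.76 after polyclonal and -0.29 after allogeneic stimulation, Rps20 at -0.53 and 0.08, and Rps27a at -0.66 and 0.00.

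Whether the effect of genotype differed between the stimulations was tested as an interaction over all 12 libraries, as the allogeneic minus the polyclonal log2 fold change. It passed for Rplp0 and Rps20, and in opposite directions. Of all 4402 genes tested, 33.9% passed (16.7% higher and 17.2% lower), so that 2 of 7 was close to the share of all genes. The median was 0.05 over the 7 genes and 0.01 over all genes. Rplp0 had an interaction of -1.07 ± 0.213 (SE, edgeR adjusted p = 0.000455), and it passed in all 12 fits that left out 1 library. With the T cell marker scaling it was at -0.58 (edgeR adjusted p = 0.0451), and the interaction of Rps20 at 1.09 (edgeR adjusted p = 0.000274).

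Rps20 had an interaction of 0.59 ± 0.198 (SE, edgeR adjusted p = 0.0243). It passed in 7 of 12 fits that left out 1 library, and was lost without WT polyclonal replicate 1 (edgeR adjusted p = 0.0563), WT polyclonal replicate 3 (0.0521), PERK-cKO polyclonal replicate 2 (0.0538), WT allogeneic replicate 3 (0.059) or PERK-cKO allogeneic replicate 2 (0.067, at 0.41). Rps27a had an interaction of similar size that did not pass (0.64 ± 0.262 (SE), edgeR adjusted p = 0.0642). It passed in 7 of 8 alternatives that kept every library, DESeq2 among them, and in 5 of 12 fits with 1 library left out. The interaction was -0.90 ± 0.454 (SE) for Rps24, 0.05 ± 0.197 (SE) for Rps26 and 0.02 ± 0.271 (SE) for Rpl13, and none of these passed. Scaled to T cell markers, 5 of 7 passed, Rps27a and Rps26 now among them and higher. Of all 4402 genes 1787 passed under this scaling, against 1491 with TMM, with the median of all genes at 0.50 and 89.3% of the called genes higher, against 49.2% with TMM.

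The stimulations were then compared within each genotype. These comparisons use the same libraries as the genotype comparisons, so their values are not independent of them. In WT cells Rps27a, Rps20 and Rps26 fell and Rplp0 rose after allogeneic as against polyclonal stimulation. Of all 3985 genes tested 48.6% passed (24.5% higher and 24.1% lower), against 5 of the 7 genes. The median log2 fold change was -0.39 over the 7 genes and -0.02 over all genes. Markers of other cells moved with this comparison. From polyclonal to allogeneic WT libraries, basophil and mast cell markers went from 3.69 to 7.28 CPM to 137 to 153 CPM, B cell markers from 9.48 to 15.1 CPM to 90.1 to 118 CPM, and macrophage and monocyte markers from 102 to 113 CPM to 234 to 272 CPM. The part of these cells in the values between stimulations was not tested.

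Rps27a was at 203 ± 49.5 and 119 ± 19.1 CPM (SD, n = 3 each), and all polyclonal libraries were above the allogeneic ones (log2 fold change -0.80 ± 0.171 (SE), edgeR adjusted p = 0.00165). Rps20 was at 662 ± 98.0 and 468 ± 52.3 CPM (SD, n = 3 each), again without overlap (log2 fold change -0.53 ± 0.117 (SE), edgeR adjusted p = 0.00206). Both genes passed with and without WT polyclonal replicate 1.

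Rps26 and Rplp0 lost their calls without WT polyclonal replicate 1. The groups of Rps26 overlapped (log2 fold change -0.33 ± 0.111 (SE), edgeR adjusted p = 0.027), and without this library its adjusted p was 0.113. Rps26 also did not pass without WT allogeneic replicate 1 (edgeR adjusted p = 0.119) or replicate 3 (0.0861), or with all 12 libraries in one fit (0.0877). Rplp0 was at 53.4 ± 8.89 and 72.8 ± 3.39 CPM (SD, n = 3 each) with no overlap (log2 fold change 0.41 ± 0.149 (SE), edgeR adjusted p = 0.0343). Without this library Rplp0 was at 0.28 with an adjusted p of 0.171, and scaled to T cell markers its sign turned (-0.08). Rplp0 also did not pass with DESeq2, with library sizes alone, or without WT allogeneic replicate 2 or replicate 3. Rpl13 was at -0.39 ± 0.170 (SE, edgeR adjusted p = 0.0745) and Rps24 at 0.27 ± 0.331 (SE, edgeR adjusted p = 0.531). Rpl13 passed in 3 of 9 alternatives that kept every library and in 1 of 6 fits with 1 library left out. With the T cell marker scaling Rpl13 fell as well (-0.89, edgeR adjusted p = 0.00052), with Rps27a at -1.30, Rps20 at -1.03 and Rps26 at -0.83, and 5 of 7 genes passed. Of all 3985 genes 2536 passed under this scaling, against 1937 with TMM. This scaling left 13.8% of the called genes higher, against 50.3% with TMM, and moved the median of all genes to -0.52. Among the markers themselves Thy1, Lck, Lat and Zap70 rose between stimulations in WT cells and 2 of the 7 fell.

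In PERK-cKO cells 2 of the 7 genes passed between the stimulations and fell after allogeneic stimulation, Rplp0 among them. Of all 4159 genes tested 51.4% passed (27.7% higher and 23.8% lower). The median log2 fold change was -0.34 over the 7 genes and 0.00 over all genes. In the same libraries basophil and mast cell markers went from 30.0 to 35.2 CPM after polyclonal to 2934 to 3179 CPM after allogeneic stimulation, macrophage and monocyte markers from 107 to 139 CPM to 1610.1 to 1820.5 CPM, and B cell markers from 11.9 to 21.6 CPM to 193 to 223 CPM, and their part was again not tested. Rplp0 was at 91.7 ± 14.4 and 59.5 ± 6.51 CPM (SD, n = 3 each), without overlap (log2 fold change -0.62 ± 0.151 (SE), edgeR adjusted p = 0.00206). This direction was opposite to that of Rplp0 in WT cells with TMM, but not when scaled to T cell markers, where WT was at -0.08 and PERK-cKO at -0.67.

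Rps20 and the genes that follow did not pass between stimulations in PERK-cKO cells. Rps20 was at 463 ± 55.7 and 493 ± 126 CPM (SD, n = 3 each; log2 fold change 0.09 ± 0.137 (SE), edgeR adjusted p = 0.617). Rps27a was at 129.7 ± 10.9 and 118 ± 39.2 CPM (SD, n = 3 each; log2 fold change -0.13 ± 0.170 (SE), edgeR adjusted p = 0.536). Rps24 did not overlap between stimulations and yet did not pass (log2 fold change -0.61 ± 0.303 (SE), edgeR adjusted p = 0.103). Rps26 (-0.24 ± 0.140 (SE)) and Rpl13 (-0.34 ± 0.190 (SE)) did not pass either. Without PERK-cKO allogeneic replicate 2, the highest library for Rps20 and Rps27a in that group, 4 genes passed in place of 2. Of all 4232 genes tested in that fit 2023 passed, against 2139 of 4159 with every library.

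Other genes of the translation machinery were counted from lists, of which only the placed genes could be measured. Their entries were placed in the same way, so their counts may also include reads from introns, a neighbour or an antisense partner. How far these entries lay on exons is not given here, and the lists were not counted under the 50% placement. Of 3 ribosomal proteins under other symbols, Fau and Rack1 among them, none had a placed entry. Of 70 ribosome biogenesis genes 22 were placed. After polyclonal stimulation 12 of the 21 tested rose in PERK-cKO and 0 fell (median 0.47), against 16% higher and 15.8% lower of all genes. Among them were Mdn1, a factor that remodels large subunit precursors (0.51 ± 0.0982 (SE), edgeR adjusted p = 0.000986), and Tcof1, a nucleolar factor of rRNA transcription (0.46 ± 0.0744 (SE), edgeR adjusted p = 0.000226). Npm1, the nucleolar chaperone nucleophosmin and the most counted gene of the list, did not pass (-0.38 ± 0.149 (SE), edgeR adjusted p = 0.0655). Without WT polyclonal replicate 1 the count was 11 higher and 0 lower, and scaled to T cell markers 5 higher and 1 lower, where 174 of all 3937 genes were higher and 1482 lower.

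After allogeneic stimulation 1 of 20 biogenesis genes tested rose and 3 fell in PERK-cKO (median -0.18), against 18.5% higher and 14.5% lower of all genes, with Mdn1 (-0.29 ± 0.0867 (SE)) and Tcof1 (-0.39 ± 0.0936 (SE)) among those that fell. Scaled to T cell markers the count was 2 higher and 0 lower, with a median of -0.02. The interaction passed for 12 of 21, 1 higher and 11 lower (median -0.60), against 16.7% and 17.2% of all genes, and for 1 higher and 6 lower when scaled to T cell markers. Between stimulations 0 of 20 rose and 6 fell in WT cells (median -0.23), and 0 of 20 rose and 16 fell in PERK-cKO cells (median -0.93) after allogeneic stimulation. Over all genes 24.5% rose and 24.1% fell in WT cells, and 27.7% rose and 23.8% fell in PERK-cKO cells. In WT cells 17 fell when scaled to T cell markers, and in PERK-cKO cells 16. Over all genes this scaling gave 2185 of 3985 lower in WT cells, against 962 with TMM, and 1044 of 4159 in PERK-cKO cells, against 988 with TMM, and the counts in WT cells of the lists that follow stand beside the same shift. Without WT polyclonal replicate 1 the interaction was higher for 1 and lower for 10, and in WT cells 1 of 21 rose and 6 fell.

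Of 42 translation initiation genes 14 were placed, and in PERK-cKO 5 of 13 tested rose and 0 fell after polyclonal stimulation (median 0.24), where 16% of all genes rose and 15.8% fell. After allogeneic stimulation 1 rose and 4 fell (median -0.19), where 18.5% of all genes rose and 14.5% fell. With RLE size factors or library sizes alone, 1 rose and 2 fell after allogeneic stimulation. Eif4h, a cofactor of the helicase eIF4A, was at 0.36 ± 0.0745 (SE, edgeR adjusted p = 0.00169) and -0.24 ± 0.0916 (SE, edgeR adjusted p = 0.0499). Eif3c, a subunit of eIF3, was at 0.21 ± 0.0824 (SE, edgeR adjusted p = 0.0694) and -0.23 ± 0.0876 (SE, edgeR adjusted p = 0.0438). Pabpc1, the poly(A)-binding protein, passed in neither (-0.01 and -0.13). The interaction was lower for 7 of 14 and higher for 0, against 17.2% lower and 16.7% higher of all genes. Scaled to T cell markers the polyclonal count was 0 higher and 1 lower, the allogeneic 1 and 1, and the interaction 2 higher and 1 lower. Without WT polyclonal replicate 1 the polyclonal count was 3 higher and 0 lower of 14 tested, the interaction was lower for 6, and 2 rose and 5 fell between stimulations in WT cells. Between stimulations 3 rose and 6 fell in WT and 0 rose and 9 fell in PERK-cKO cells, and scaled to T cell markers 0 rose and 7 fell in WT. With TMM 24.5% of all genes rose and 24.1% fell in WT cells, and 27.7% rose and 23.8% fell in PERK-cKO cells.

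Of 19 elongation and termination genes 5 were placed and tested. In PERK-cKO 3 rose after polyclonal stimulation (median 0.37), among them Etf1, the release factor (0.50 ± 0.0860 (SE), edgeR adjusted p = 0.000429), and Naca, of the nascent chain complex (0.37 ± 0.132 (SE), edgeR adjusted p = 0.0428). Eef1e1, of the tRNA synthetase complex, was at -0.08 ± 0.141 (SE). None passed after allogeneic stimulation. Of all genes 16% rose and 15.8% fell after polyclonal stimulation, and 18.5% rose and 14.5% fell after allogeneic stimulation. The polyclonal count was 1 higher without WT polyclonal replicate 1, and 0 higher and 1 lower when scaled to T cell markers. The interaction was lower for 3, for 2 without WT polyclonal replicate 1, and scaled to T cell markers it was higher for 1 and lower for 0. Between stimulations 1 fell in WT and 3 fell in PERK-cKO cells, and scaled to T cell markers 4 of 5 fell in WT cells. With TMM the interaction was higher for 16.7% and lower for 17.2% of all genes. Between stimulations 24.5% of all genes rose and 24.1% fell in WT cells, and 27.7% rose and 23.8% fell in PERK-cKO cells.

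Of 25 genes of TOP mRNA and mTORC1 control 4 were placed. Larp1, which binds the TOP stretch, rose in PERK-cKO after polyclonal stimulation (0.50 ± 0.0765 (SE), edgeR adjusted p = 0.000161), as did Rheb, the GTPase that activates mTORC1 (0.36 ± 0.129 (SE), edgeR adjusted p = 0.0425). With RLE size factors 1 of 3 tested rose in place of these 2. Rptor, the mTORC1 scaffold, rose after allogeneic stimulation (0.33 ± 0.112 (SE), edgeR adjusted p = 0.0242). Of all genes 16% rose and 15.8% fell after polyclonal stimulation, and 18.5% rose and 14.5% fell after allogeneic stimulation. Scaled to T cell markers 0 of 3 passed after polyclonal and 1 of 3 after allogeneic stimulation. Without WT polyclonal replicate 1, 1 of 4 tested rose after polyclonal stimulation. The interaction was lower for Larp1 (-0.72 ± 0.116 (SE)) and higher for none, but scaled to T cell markers it was higher for 1 of the genes and lower for 0. After allogeneic as against polyclonal stimulation 1 of 3 rose in WT, and 2 rose and 1 fell of 4 in PERK-cKO cells. In WT cells 0 rose and 2 of 3 fell when scaled to T cell markers. With TMM the interaction was higher for 16.7% and lower for 17.2% of all genes. Between stimulations 24.5% of all genes rose and 24.1% fell in WT cells, and 27.7% rose and 23.8% fell in PERK-cKO cells.

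Of 78 mitochondrial ribosomal proteins, which belong to the ribosomes inside mitochondria, 13 were placed. Of 11 tested after polyclonal stimulation 1 rose in PERK-cKO, Mrpl11 (0.52 ± 0.102 (SE), edgeR adjusted p = 0.00114), while Mrpl50 (-0.03 ± 0.153 (SE)) and Mrpl1 (0.00 ± 0.117 (SE)) did not pass. None of 10 passed after allogeneic stimulation. Of all genes 16% rose and 15.8% fell after polyclonal stimulation, and 18.5% rose and 14.5% fell after allogeneic stimulation. Scaled to T cell markers 0 rose and 2 fell after polyclonal stimulation. The interaction was lower for Mrpl11 (-0.77 ± 0.141 (SE)) and higher for none, but scaled to T cell markers it was higher for 1 gene and lower for 0 (median 0.34). With TMM the interaction was higher for 16.7% and lower for 17.2% of all genes. After allogeneic as against polyclonal stimulation 1 of 10 rose and 1 fell in WT cells, and 0 rose and 4 fell in PERK-cKO cells. Of all genes 24.5% rose and 24.1% fell in WT cells, and 27.7% rose and 23.8% fell in PERK-cKO cells. In WT cells 0 of 11 rose and 1 fell without WT polyclonal replicate 1, and scaled to T cell markers 0 of 10 rose and 8 fell.

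**Figure D4:**
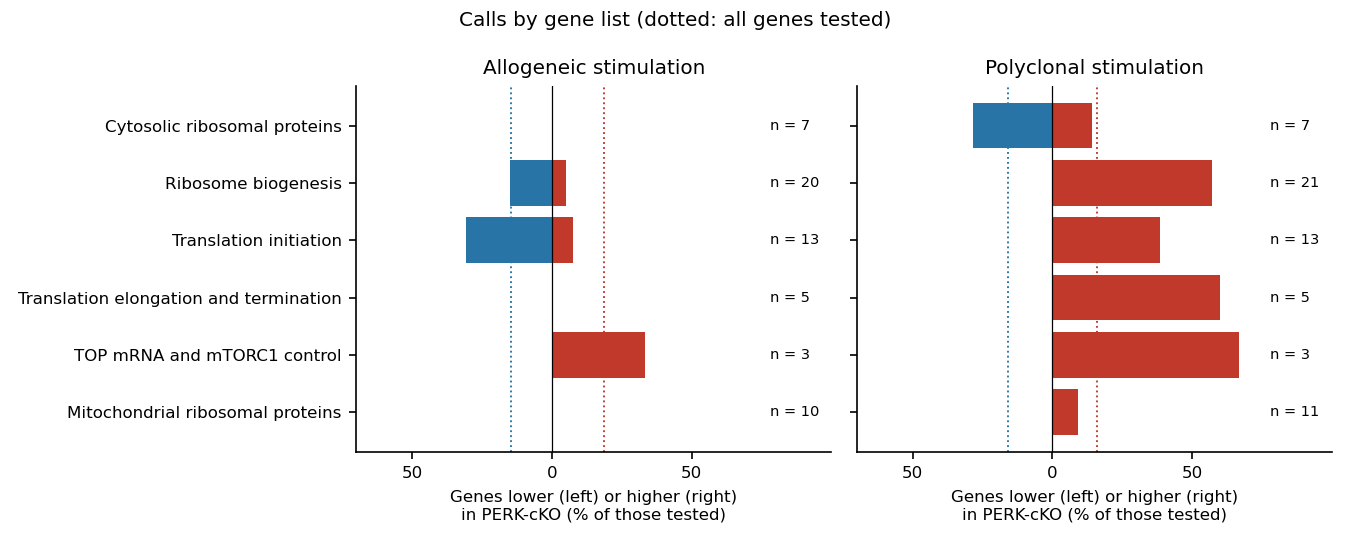
Share of the tested genes of each list (horizontal axis, %; n is the number tested) that passed as lower (left, blue) or higher (right, red) in PERK-cKO after each stimulation, with dotted lines at the share over all genes tested. Ribosome biogenesis had 12 higher and 0 lower of 21 in PERK-cKO after polyclonal stimulation, against 1 higher and 2 lower of 7 cytosolic ribosomal proteins.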

How the data were processed

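Bulk RNA-Seq counts of 12 libraries, 3 in each of 4 groups, were taken as deposited. The authors deposited raw paired-end read counts per gene symbol, made with featureCounts 2.0.1 on GENCODE M27 exons, with neither a strand nor a multi-mapping option given. The submitters' processing notes name mm10. As M27 positions belong to another build, each entry was laid as printed on GENCODE M21 (GRCm38) exons. It was counted for a gene only where it overlaid at least 50 exonic bases of exactly 1 gene, small RNAs aside, which placed 13386 of 53762 entries and 50.4% of the counts.

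Groups were compared with edgeR 4.0.16 (quasi-likelihood test, filterByExpr, TMM) in R 4.3.3, each comparison on its own libraries, with Benjamini-Hochberg adjustment over all genes tested and a threshold of 0.05. CPM were computed from placed counts. Reported log2 fold changes carry a prior count of 0.125. The scripts were tested on simulated data. Alternatives were DESeq2 1.42.0, 3 other scalings, 2 other count filters, a placement that asks for at least 50% of an entry on exons, 1 fit over all 12 libraries, a replicate block and leaving out each library. The list counts without WT polyclonal replicate 1 and the list values under other scalings, like every alternative value of a single gene between stimulations, were added after the data were seen.

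Ribosomal protein genes with at least 10 placed counts are given in every library, apart from 1 gene that is not reported here. Of each pathway list the 3 genes with the most counts are named, and marker lists are given by their summed CPM, naming markers at 0. A few genes were named outside this rule after their values were seen. Members and lists were chosen with earlier results of these data known. Depth, 1568431 to 2327503 placed counts per library, limits the genes with few counts.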

Additional observations from a re-analysis of the deposited data

Results flagged for a closer look

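Rplp0 and Rps20 had different effects of genotype in the allogeneic and polyclonal stimulations by the interaction term of edgeR's quasi-likelihood fit over all 12 libraries. The interaction was -1.07 for Rplp0 (adjusted p = 0.000455) and 0.59 for Rps20 (adjusted p = 0.0243), on the log2 scale. With libraries scaled to T cell markers they were -0.58 (adjusted p = 0.0451) and 1.09 (adjusted p = 0.000274). The bases counted for Rplp0 lay on its exons over only 20.2%, and Rps20 lost its call in 5 of the 12 fits that left out 1 library.

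Counts also fell on ribosomal protein pseudogenes, which the comparisons did not use. Over the 12 libraries 26 such pseudogenes had a placed entry, with 267702 counts in all, against 26234 for the 8 ribosomal protein genes. Rpl27-ps3 held 113209 counts, Rps18-ps3 90586, Rpl21-ps15 37519 and Rpl30-ps9 23367. Their share of placed counts was 0.866% to 1.75% per library. Whether these reads came from the pseudogenes, their parent genes or a gene around them was not tested.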

How the results depend on the processing

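Scaling to T cell markers gave 5 ribosomal protein genes called in the polyclonal comparison of genotypes (3 with TMM) and 5 in the interaction (2 with TMM), and moved the median log2 fold change of the members to 0.10 (allogeneic), -0.40 (polyclonal), 0.55 (interaction) and -0.89 (stimulations in WT). Under it Rpl13 (0.10) and Rps26 (0.04) turned sign in the allogeneic comparison, and Rplp0 (-0.08) and Rps24 (-0.23) between stimulations in WT. Asking for 50% of an entry on exons left 4 members. Between stimulations 4 of these 4 passed as lower in WT (median -0.52) and 0 in PERK-cKO. The 2 genes called in PERK-cKO with all entries were not among the 4. Under this rule the median moved to -0.39 (polyclonal) and 0.39 (interaction). Fewer genes are tested there, and 400 of 1096, 339 of 1008, 396 of 1143, 567 of 1035 and 612 of 1090 genes passed in the allogeneic, polyclonal, interaction, WT and PERK-cKO comparisons, against 1352 of 4093, 1250 of 3937, 1491 of 4402, 1937 of 3985 and 2139 of 4159. With no filter the median of the interaction was 0.19 over 8 members and also 0.19 over all genes, against 0.05 and 0.01.

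With 1 library left out, 1 to 3 members passed in the interaction, 3 to 5 in WT and 2 to 4 in PERK-cKO cells between stimulations, while 3 passed in every polyclonal and 0 in every allogeneic fit. The count of 3 in WT came without WT polyclonal replicate 1 or WT allogeneic replicate 3, and that of 4 in PERK-cKO without PERK-cKO allogeneic replicate 2. The interaction fell to 1 without WT polyclonal replicate 1 or 3, PERK-cKO polyclonal replicate 2, WT allogeneic replicate 3 or PERK-cKO allogeneic replicate 2. Over all genes 1335 to 1426 of 4506 to 4570 tested passed in these interaction fits. Between stimulations 1714 to 1854 of 4100 to 4141 passed in WT and 1980 to 2070 of 4222 to 4356 in PERK-cKO cells. In the genotype comparisons 983 to 1160 of 4052 to 4077 passed after polyclonal and 1140 to 1288 of 4177 to 4316 after allogeneic stimulation. The interaction was tested on 7 or 8 members in these fits. The median of the members ranged from -0.18 to 0.13 (allogeneic), -0.24 to -0.02 (polyclonal), 0.03 to 0.28 (interaction), -0.56 to -0.26 (WT) and -0.48 to -0.18 (PERK-cKO). Signs turned for uncalled genes, with ranges of -0.30 to 0.04 (Rps26), -0.13 to 0.20 (Rps20), -0.29 to 0.15 (Rps27a, at 0.00 with all libraries) and -0.18 to 0.13 (Rpl13) in the allogeneic comparison, -0.24 to 0.06 (Rpl13) in the polyclonal one and -0.10 to 0.23 (Rpl13) and -0.11 to 0.24 (Rps26) in the interaction, and -0.05 to 0.46 (Rps24 in WT), -0.14 to 0.21 (Rps20 in PERK-cKO) and -0.44 to 0.02 (Rps27a in PERK-cKO) between stimulations. Apart from leaving out libraries, 41 of 44 counts of members called stayed within 1.5 times the reported count, 37 of 44 medians moved by less than the SD between replicates, and 235 of 254 log2 fold changes of the genes described kept their direction and side of the threshold, over the 5 comparisons, while 4 reversed and, with their direction kept, 12 gained and 3 lost a call. The cause of these changes was not tested.

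With the replicate number as a block, 0, 3, 2, 5 and 2 members passed in the allogeneic, polyclonal, interaction, WT and PERK-cKO comparisons, as without it. Libraries of the same number correlated at -0.10 to 0.10 in their deviations from the group means and did not all correlate best with their own number. No pairing by number was thus detected, which does not show that none existed.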
